A study of Mus musculus with 21 samples.

Results

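The collagen genes of the healing heart apex were examined as a family: every gene of the deposited expression table whose symbol is Col, a number, the letter a and a number, which names 1 polypeptide chain of 1 collagen type. The table of 18762 genes held 44 such chains, 11 of fibrillar collagens, 8 of basement membrane collagens and 25 of the remaining classes. Of these, 30 chains (10 fibrillar, 6 basement membrane and 14 others) had at least 1 FPKM (fragment counts scaled by transcript length and by the mapped total) in at least 3 of the 21 libraries and were compared between groups. The samples were heart apices of ICR mice at postnatal day 7, after resection of the apex on day 1, with 3 libraries in each of 7 groups. The control group carries the label apical resection alone. Its library titles begin with NS, and the labels do not say whether it was injected. The other groups were injected under the skin for 7 consecutive days with isoproterenol, an agonist of β-adrenergic receptors, amiodarone, which acts on potassium channels among others, metoprolol or propranolol, both β-blockers, lidocaine, which blocks sodium channels, or ivabradine, which blocks the pacemaker current. The labels give no doses, no unresected apex was analysed here, and nothing ties the libraries of a group to different animals, so p-values measure only how much these libraries vary. The question of each comparison is whether the collagen transcripts of the resected apex differed with a drug.

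Collagens are proteins of the extracellular matrix whose chains wind around each other into a helix. Fibrillar collagens, led by types I and III, form the tensile fibres of heart stroma and of scar, and cardiac fibroblasts are their main source. Basement membrane collagens, led by type IV, form the sheet beneath endothelium and around each cardiomyocyte and mural cell. Most of the remaining chains bind fibrils, form beaded filaments beside them, or sit in cell membranes.

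The deposited values carry no read counts, so the depth is unknown. FPKM summed to 496304 to 552905 per library, 16348 to 16746 genes were above 0, and the correlation across genes between libraries within 1 group ran from 0.988 to 0.996.

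The controls differed from each other in collagen by more than the libraries of the drug groups did. Across all 12433 genes tested the mean of controls 2 and 3 lay a median of 0.00 log2 above control 1, and 439 genes (3.53%) lay at least 0.5 log2 above it. Among the 30 chains the median was 0.64, and 19 chains (63.3%) lay at least 0.5 above, 9 of the 10 fibrillar, 10 of the 14 other and 0 of the 6 basement membrane chains. The median standard deviation of the controls was 0.389 log2 over the chains and 0.085 over all genes, and that within the drug groups was 0.172 and 0.102. Calls of chains against control are therefore given with all 3 controls and, where they differ, also without control 1. The second fit is 1 of the fits that leave out a library in turn, and control 1 is named because it moved the counts, so its values are no better estimate than those with all controls. All 6 drug comparisons share the same 3 controls, so their like results are not independent of each other. In these bulk samples, fewer cells of a type and less RNA per cell cannot be told apart.

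**Figure D1:**
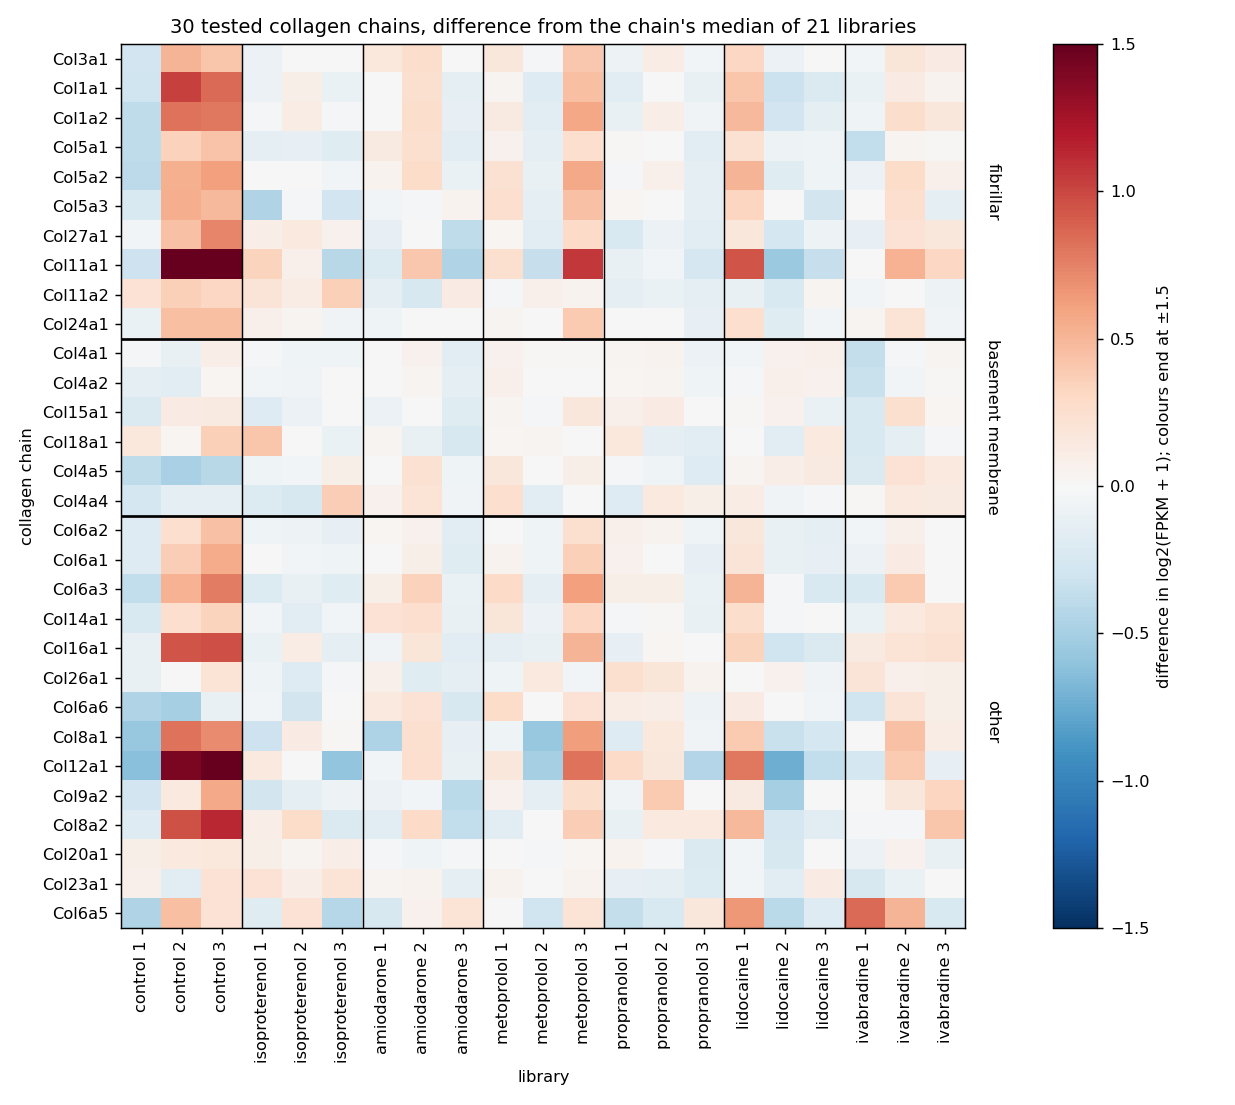
Each row is 1 of the 30 tested collagen chains, grouped by class, and each column 1 of the 21 libraries; colour gives the difference of log2(FPKM + 1) from the chain's median over all libraries, with the colour scale ending at 1.5 either way. Controls 2 and 3 stand out as high columns among the fibrillar and other chains (21 of 30 chains had their highest value in 1 of these libraries), while control 1 does not.

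With all 3 controls, few chains passed the test, limma on log2(FPKM + 1) with Benjamini-Hochberg adjustment over all 12433 genes within a comparison and a threshold of 0.05. Isoproterenol against control called 3 of 30 chains, 1 higher and 2 lower, where 34.2% of all genes were called, 8.38% higher and 25.8% lower. Amiodarone called 5 chains, 2 higher and 3 lower, beside 29% of all genes, 8.47% higher and 20.6% lower. Metoprolol called 2 chains, both higher, beside 31.4% of all genes, 9.48% higher and 22% lower. The share of chains called lay under that of all genes in these 3 comparisons. Propranolol called 5 chains, 2 higher and 3 lower, beside 26.8% of all genes, 6.98% higher and 19.8% lower. Lidocaine called 6, 2 higher and 4 lower, beside 37.1%, 10.6% higher and 26.6% lower. Ivabradine called 2, 1 higher and 1 lower, beside 27%, 7.91% higher and 19.1% lower. In these 3 as well the share of chains called lay under that of all genes. The chains' median difference ran from -0.25 with isoproterenol to -0.10 with metoprolol, beside -0.10 to -0.08 over all genes. Of all genes called in a comparison, 24.5% to 30.2% were higher, and 59.1% to 64.3% after median-of-ratios rescaling of the libraries, which moved the median of all genes to between -0.01 and 0.01. In all, 7 chains were called against control in at least 1 drug group: Col4a5, Col6a6, Col16a1, Col27a1, Col11a2, Col5a3 and Col20a1.

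Col3a1 and Col1a1 had the highest mean levels of the fibrillar class and of the whole family. Col1a1 (Entrez 12842), the chain that occurs as a pair in each type I molecule, stood at 374, 937 and 833 FPKM in controls 1, 2 and 3. Under the drugs, in the order of the library numbers, Col1a1 stood at 433, 490 and 430 with isoproterenol, 462, 544 and 420 with amiodarone, 475, 403 and 631 with metoprolol, 413, 461 and 426 with propranolol, 613, 368 and 398 with lidocaine, and 431, 503 and 477 with ivabradine. All 18 drug libraries were below controls 2 and 3, but 17 of them were above control 1, so no drug group stood apart from the controls as a whole. The control mean was 714 ± 299 (SD, n = 3) FPKM and the drug group means ran from 434 ± 24.7 (propranolol, n = 3) to 503 ± 116 (metoprolol, n = 3). Differences from control were -0.61 to -0.42 log2 (SE 0.25), with limma adjusted p between 0.075 and 0.2, and none passed.

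Col1a2 (Entrez 12843), the partner chain of type I, stood at 258, 588 and 579 FPKM in the 3 controls. Under the drugs it stood at 328, 362 and 330 with isoproterenol, 335, 401 and 307 with amiodarone, 368, 300 and 500 with metoprolol, 310, 359 and 323 with propranolol, 470, 275 and 303 with lidocaine, and 320, 404 and 377 with ivabradine. Its order of libraries was like that of Col1a1, with control 1 the lowest of all 21 and controls 2 and 3 the highest. The differences were -0.43 to -0.22 log2 (SE 0.25, adjusted p 0.21 to 0.51 by limma). Col3a1 (Entrez 12825), the only chain of type III collagen and the most abundant collagen transcript here, stood at 537, 938 and 879 FPKM in the controls. Its drug libraries stood at 619, 653 and 655 with isoproterenol, 734, 787 and 656 with amiodarone, 739, 644 and 867 with metoprolol, 620, 711 and 636 with propranolol, 815, 615 and 653 with lidocaine, and 635, 745 and 717 with ivabradine. Control 1 was again the lowest library, and the drug groups lay between it and the other controls. The differences of Col3a1 were small, -0.25 to -0.03 log2 (SE 0.16, adjusted p 0.24 to 0.89 by limma).

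The upstream regions of Col3a1 and Col1a2 are shown because they have the highest means among the fibrillar chains with a RefSeq window, which Col1a1 is not among. RefSeq promoter windows (GRCm38.p6, 250 bases before to 50 after the start) matched 35 of the 44 chains and 25 of the 30 tested ones. Of each upstream region, only the longest run of bases before the start that lies outside GENCODE M21 exons is printed, 5′ to 3′ on the gene's strand. Capitals mark a match to the TATA box sequence (TATAAA) in Col3a1, chr1:45311288-45311537 on the plus strand, with 35.2% G and C. That match begins at base -117 from the start. In Col1a2, chr6:4505370-4505492 on the plus strand, with 59.3% G and C, capitals mark GC boxes (GGGCGG). The printed bases of Col1a2 stop short of its start. Its window also held CCAAT boxes (CCAAT) at bases -109 and 0 from the start, which are not printed.
Col3a1: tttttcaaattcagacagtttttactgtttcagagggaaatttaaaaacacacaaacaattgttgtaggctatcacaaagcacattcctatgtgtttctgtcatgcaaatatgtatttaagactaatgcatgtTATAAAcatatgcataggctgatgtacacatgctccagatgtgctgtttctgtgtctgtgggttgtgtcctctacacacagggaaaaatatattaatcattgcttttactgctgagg
Col1a2: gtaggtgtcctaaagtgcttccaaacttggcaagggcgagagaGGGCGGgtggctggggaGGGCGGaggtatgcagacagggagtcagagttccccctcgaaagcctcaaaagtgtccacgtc
Searched on both strands, GGGCGG was in 70.4% of the 27 windows of tested chains and in 35.7% of all 32851 windows, TATAAA in 7.41% against 13.6%, and CCAAT in 29.6% against 37.4%. The motifs were searched 1 at a time, so that matches of different motifs may overlap, and a match says nothing of whether a factor binds there.

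**Figure D2:**
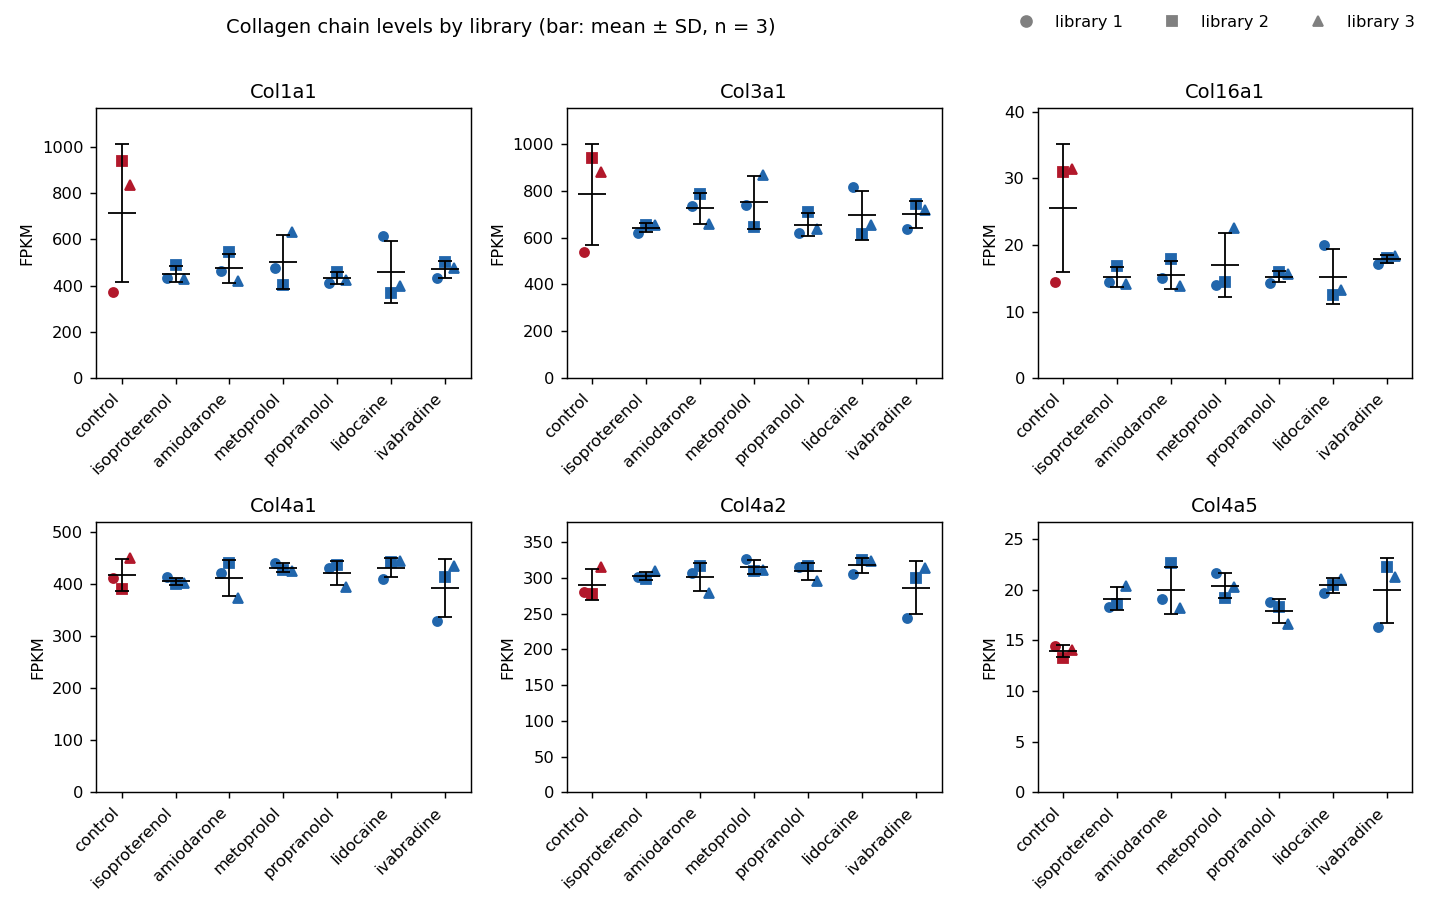
FPKM of Col1a1, Col3a1, Col16a1, Col4a1, Col4a2 and Col4a5 on linear axes, with 1 point per library in each of the 7 groups and bars for the group mean and SD (n = 3). Control 1 lies far below controls 2 and 3 for Col1a1, Col3a1 and Col16a1, the groups overlap for Col4a1 and Col4a2, and all 18 drug libraries lie above the 3 controls for Col4a5.

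Type V collagen sits inside type I fibrils and sets their width. Its chain Col5a1 (Entrez 12831) stood at 53.6, 89.7 and 95.2 FPKM in the controls. Under the drugs Col5a1 stood at 64.1, 64.6 and 61.8 with isoproterenol, 77.5, 83.2 and 62.8 with amiodarone, 73.7, 63.9 and 83.6 with metoprolol, 71.2, 70.3 and 62.2 with propranolol, 82.5, 66.5 and 67.1 with lidocaine, and 54.1, 72.2 and 71.4 with ivabradine. Every drug library was above control 1 and below controls 2 and 3, and the differences, -0.28 to -0.06 log2 (SE 0.17), did not pass (adjusted p 0.21 to 0.81 by limma). Col5a2 ranged from 27.5 FPKM in control 1 to 56.5 in control 3, with metoprolol 3 (54.4) above control 2 (53.4), and its differences of -0.28 to -0.03 log2 did not pass. Without control 1, Col5a1 (-0.53 to -0.32) and Col5a2 (-0.60 to -0.35) each fell in 4 of 6 drug groups.

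Col5a3 (Entrez 53867), a less abundant chain of type V, was called with 1 drug or with 5, depending on the controls used. Its controls stood at 11.8, 20.9 and 20 FPKM and its drug libraries at 10, 13.8 and 11.3 with isoproterenol, 13.6, 13.7 and 14.6 with amiodarone, 16.8, 12.6 and 19.4 with metoprolol, 14.3, 14.1 and 12.6 with propranolol, 17.8, 14 and 11.4 with lidocaine, and 14.1, 16.8 and 12.7 with ivabradine. With all controls the difference with isoproterenol was -0.52 log2 (SE 0.19, adjusted p = 0.038 by limma), a call kept in 8 of 18 alternative fits and lost after rescaling, without control 2 and without control 3, and those of the other drugs, up to -0.09, did not pass. Isoproterenol 2 and control 1 overlap, and the difference between isoproterenol and the other 5 drugs, -0.29 (SE 0.14, adjusted p = 0.16), did not pass, so Col5a3 was not shown to differ between drugs. Without control 1 it fell with every drug but metoprolol (-0.76 to -0.33 over the 6 drugs, lowest adjusted p 0.0023).

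Among the low fibrillar chains, Col27a1 and Col11a2 passed the test in several groups. Col27a1 (Entrez 373864), a chain of cartilage and other young matrices, stood at 3.29, 4.95 and 6.33 FPKM in the controls. Its drug libraries stood at 3.72, 3.89 and 3.59 with isoproterenol, 3.03, 3.4 and 2.39 with amiodarone, 3.49, 2.93 and 4.35 with metoprolol, 2.75, 3.15 and 2.92 with propranolol, 3.97, 2.67 and 3.19 with lidocaine, and 3.03, 4.11 and 3.94 with ivabradine. Col27a1 fell with amiodarone (-0.55 log2, SE 0.16, adjusted p = 0.018), propranolol (-0.54, adjusted p = 0.02) and lidocaine (-0.43, adjusted p = 0.043, all by limma), and of these groups the propranolol libraries alone all lay below the controls, as 31.2% of all genes did. Each of these 3 calls was lost without control 2 and without control 3, and that with lidocaine also after rescaling. Col11a2, a chain of type XI collagen, stood at 1, 1.2 and 1.13 FPKM in the controls. Under the drugs it stood at 0.96, 0.86 and 1.21 with isoproterenol, 0.57, 0.46 and 0.88 with amiodarone, 0.69, 0.81 and 0.79 with metoprolol, 0.56, 0.61 and 0.57 with propranolol, 0.59, 0.47 and 0.77 with lidocaine, and 0.67, 0.72 and 0.63 with ivabradine. It fell with amiodarone (-0.37, SE 0.10, adjusted p = 0.011), propranolol (-0.42, adjusted p = 0.0058), lidocaine (-0.39, adjusted p = 0.0054) and ivabradine (-0.33, adjusted p = 0.019), and every library of those groups and of metoprolol lay below the controls. Such a gap below the controls was common, in 30.6% (amiodarone), 31.8% (metoprolol), 31.2% (propranolol), 33.3% (lidocaine) and 25.8% (ivabradine) of all genes. The isoproterenol libraries overlapped the controls. Col11a2 had 1 FPKM or more in 4 libraries, of which 3 are the controls, so it passed the filter on low values mainly through the group where it was high, and its calls carry that condition.

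Col11a1 and Col24a1 complete the fibrillar class. Col11a1, the partner of Col11a2 in type XI collagen, ran from 0.73 FPKM in control 1 to 5.32 and 7.66 in controls 2 and 3, and from 0.45 to 3.47 in the drug libraries. Its differences, -1.22 to -0.77 log2 (SE 0.48), were the largest of the 30 chains and did not pass (adjusted p 0.063 to 0.22). Col24a1 stood at 1.12 FPKM in each of controls 2 and 3 and at 0.45 in control 1, with 1 drug library, metoprolol 3 at 1.03, above 1 FPKM, so it passed the filter mainly through those controls. It was not called with all controls, and without control 1 it fell in 5 groups (-0.50 to -0.31) under that condition.

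Without control 1 the fibrillar class looked different. Of its 10 chains, 9 fell with isoproterenol, 8 with amiodarone, 4 with metoprolol, 10 with propranolol, 10 with lidocaine and 9 with ivabradine, counts that include Col11a2 and Col24a1 with their condition on the filter. Over all 30 chains the fit called 1 higher and 18 lower with isoproterenol, where it called 8.18% of all genes higher and 24.2% lower. With amiodarone it called 1 higher and 15 lower (all genes 8.16% and 19.4%), and with metoprolol 2 and 10 (8.82% and 20.8%). With propranolol it called 1 and 17 (6.68% and 19.4%), with lidocaine 1 and 17 (9.91% and 25.4%), and with ivabradine 1 and 15 (7.54% and 18.5%). The share of chains called lower, which had been under that of all genes in every comparison, was thus above it in every one. Col1a1 then fell in all 6 drug groups (-1.03 to -0.84 log2, adjusted p 0.00084 to 0.0036 by limma), and so did Col1a2 (-0.82 to -0.61, adjusted p 0.006 to 0.027). Col3a1 fell in 4 of 6 (-0.50 to -0.29). Col11a1 fell in all 6 (-1.92 to -1.47, adjusted p 0.0025 to 0.012), as did Col27a1. Leaving out control 2 instead gave 1 or 2 called chains in each drug comparison, and leaving out control 3 gave 1 to 3. The size and the calls of the fibrillar differences thus rested on which controls were used, and so did the direction of the smallest ones. The differences were negative for all 10 fibrillar chains with every drug when all 3 controls were used, but after rescaling the highest reached 0.06 for Col3a1, 0.03 for Col5a1 and 0.06 for Col5a2. With metoprolol the difference changed sign in 5 of 18 alternative fits for Col3a1 (up to 0.12) and in 5 of 18 for Col5a1 (up to 0.08).

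**Figure D3:**
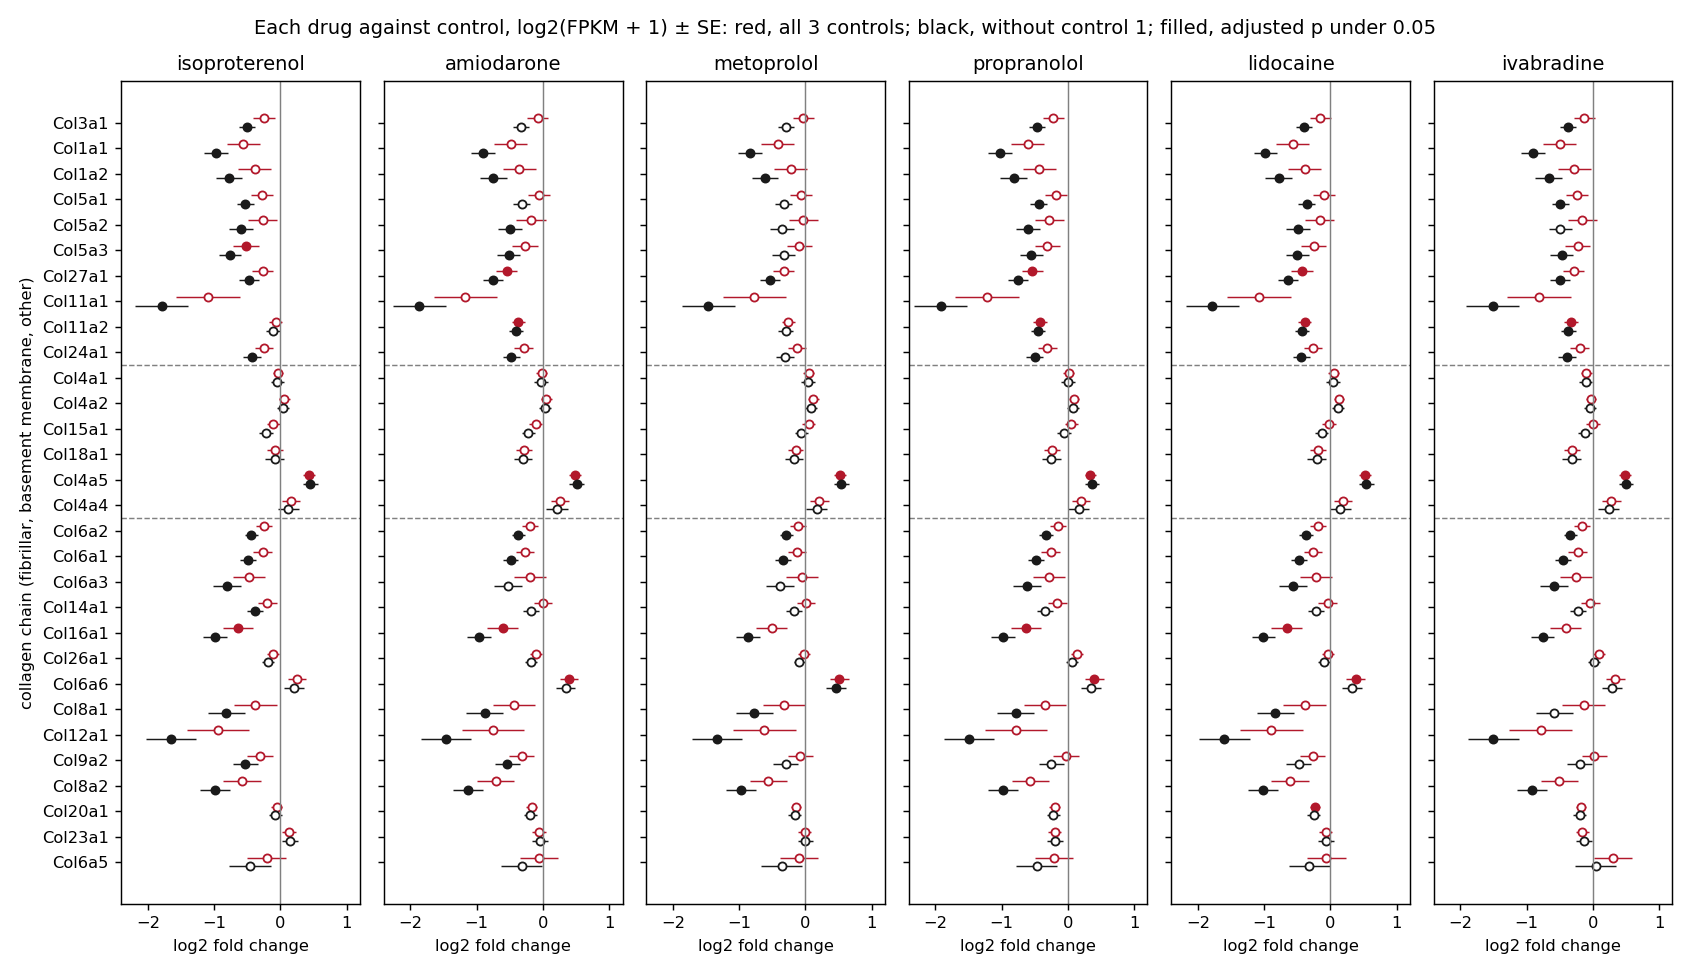
Difference of each tested chain from control in log2(FPKM + 1), with its standard error, in 1 panel per drug; red points use all 3 controls and black points leave out control 1, and filled points have an adjusted p under 0.05. Most fibrillar and other chains shift to the left without control 1, and more of them are filled. Of the basement membrane chains only Col4a5 is filled, and it lies to the right in all 6 panels under either fit.

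Basement membrane chains behaved otherwise. Col4a1 (Entrez 12826), which with Col4a2 makes the common type IV network, stood at 411, 391 and 451 FPKM in the controls. Under the drugs Col4a1 stood at 413, 401 and 403 with isoproterenol, 421, 441 and 373 with amiodarone, 441, 427 and 426 with metoprolol, 432, 436 and 395 with propranolol, 410, 442 and 444 with lidocaine, and 329, 413 and 434 with ivabradine. The groups overlap throughout, and its differences were -0.10 to 0.05 log2 (SE 0.08, adjusted p 0.41 to 0.92 by limma). Col4a2 (Entrez 12827) stood at 280, 277 and 315 FPKM in the controls. Its drug libraries stood at 301, 299 and 309 with isoproterenol, 307, 317 and 279 with amiodarone, 326, 309 and 311 with metoprolol, 315, 317 and 295 with propranolol, 306, 325 and 323 with lidocaine, and 244, 300 and 314 with ivabradine. These too overlap the controls, with differences of -0.03 to 0.13 (SE 0.08, adjusted p 0.17 to 0.8), though after rescaling Col4a2 was called higher in 2 groups (0.06 to 0.24). Control 1 did not stand apart for either chain, and ivabradine 1 was the lowest library of both.

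Col4a1 and Col4a2 are read from neighbouring starts in opposite directions, and the bases from 1 start to the other are shown because the levels of these genes kept a narrow ratio. The RefSeq starts lie 21 bases apart, and the 300-base windows of the genes share 78 bases. The printed stretch is chr8:11312801-11312830 on the plus strand of GRCm38.p6, in which the 22 bases in capitals run from 1 start site to the other. Col4a2 starts at 11312805 on the plus strand and Col4a1 at 11312826 on the minus strand. The bases in capitals thus lie after both starts, where the transcripts overlap, and are not upstream sequence.
Col4a1 and Col4a2: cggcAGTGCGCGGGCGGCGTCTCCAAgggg
The ratio of Col4a1 to Col4a2 was 1.47, 1.41 and 1.43 in the controls and 1.30 to 1.39 in the 18 drug libraries.

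Col4a5 (Entrez 12830), a chain of the second type IV network, was the 1 chain that rose in all 6 drug groups. Its controls stood at 14.4, 13.3 and 14.1 FPKM, a mean of 13.9 ± 0.562 (SD, n = 3). Under the drugs it stood at 18.3, 18.6 and 20.4 with isoproterenol, 19.1, 22.6 and 18.2 with amiodarone, 21.7, 19.2 and 20.3 with metoprolol, 18.8, 18.3 and 16.6 with propranolol, 19.7, 20.5 and 21.1 with lidocaine, and 16.3, 22.3 and 21.3 with ivabradine. All 18 drug libraries lay above all 3 controls, which held for no other tested chain and for 3.23% of all genes. The rise was 0.43 log2 with isoproterenol (SE 0.09, adjusted p = 0.0021), 0.49 with amiodarone (adjusted p = 0.0016) and 0.52 with metoprolol (adjusted p = 0.00089). It was 0.34 with propranolol (adjusted p = 0.013), 0.52 with lidocaine (adjusted p = 0.00052) and 0.48 with ivabradine (adjusted p = 0.0014, all by limma). Without control 1 the rises were 0.36 to 0.54, all called. Rescaling kept all 6 calls. The call was kept in all 18 alternative fits for each drug but propranolol, where it was kept in 15 of 18 and lost without control 2, without propranolol 1 or without 4 libraries with transcripts of other tissues.

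Col4a5 shares a start region with Col4a6 on the X chromosome, and their upstream sequences are shown because only Col4a5 was tested. The starts lie 1343 bases apart on opposite strands. Capitals mark a CCAAT box in Col4a5, chrX:141475169-141475384 on the plus strand, and CCGCCC, the GC box on the opposite strand, in Col4a6, chrX:141474077-141474326 on the minus strand. The window of Col4a5 also held a GC box, at base -30 from its start, outside the printed bases.
Col4a5: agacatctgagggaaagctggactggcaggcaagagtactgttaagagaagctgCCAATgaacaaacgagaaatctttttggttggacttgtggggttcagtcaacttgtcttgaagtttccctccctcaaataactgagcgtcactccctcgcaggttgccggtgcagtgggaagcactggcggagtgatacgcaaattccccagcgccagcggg
Col4a6: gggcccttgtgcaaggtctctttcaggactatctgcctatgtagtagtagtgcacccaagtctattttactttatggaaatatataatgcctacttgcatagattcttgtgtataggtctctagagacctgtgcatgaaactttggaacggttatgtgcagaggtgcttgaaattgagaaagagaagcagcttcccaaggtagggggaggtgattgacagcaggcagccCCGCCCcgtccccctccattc
Col4a6 had 0.52 to 1.14 FPKM over the 21 libraries and reached 1 FPKM in 1 library, and Col4a3 had 0.25 to 0.63. Col4a4, like Col4a3 a partner of Col4a5 in this network, stood at 0.72, 0.88 and 0.87 FPKM in the controls and 0.75 to 1.68 under the drugs. Its differences were 0.16 to 0.28 log2 (SE 0.14, adjusted p 0.14 to 0.4) and did not pass. The amiodarone, lidocaine and ivabradine libraries of Col4a4 lay above all controls, where 13%, 15.2% and 10.1% of all genes had such a pattern. Col4a4 reached 1 FPKM in 13 libraries and in no control. It thus passed the filter through the drug groups, where it was high, and this gap carries that condition.

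Col15a1 and Col18a1, which border basement membranes and release anti-angiogenic fragments, were measured well above the filter. Col15a1 (Entrez 12819) stood at 110, 139 and 141 FPKM in the controls. Under the drugs Col15a1 stood at 112, 120 and 128 with isoproterenol, 120, 127 and 113 with amiodarone, 132, 126 and 144 with metoprolol, 135, 140 and 128 with propranolol, 130, 134 and 119 with lidocaine, and 109, 151 and 131 with ivabradine. The groups overlap for Col15a1. Col18a1 (Entrez 12822) stood at 43.9, 40.2 and 50.8 FPKM in the controls. Its drug libraries stood at 52.8, 39.2 and 36.7 with isoproterenol, 40.6, 36.5 and 33.2 with amiodarone, 40.2, 40.6 and 39.7 with metoprolol, 44, 35.4 and 34.8 with propranolol, 39.4, 34.8 and 43.6 with lidocaine, and 33.6, 35.6 and 39 with ivabradine. All 3 ivabradine libraries of Col18a1 lay below the controls, as did 25.8% of all genes, and the other groups overlap them. Differences were -0.11 to 0.05 log2 for Col15a1 and -0.31 to -0.08 for Col18a1, and none passed (lowest adjusted p 0.43 and 0.071 by limma), nor did any without control 1 (0.094 and 0.098).

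Type VI collagen, the beaded filament around cells, is made of Col6a1, Col6a2 and Col6a3 or a related chain in its place. Col6a2 (Entrez 12834) stood at 149, 204 and 233 FPKM in the controls. Under the drugs Col6a2 stood at 163, 162 and 157 with isoproterenol, 175, 179 and 153 with amiodarone, 171, 164 and 202 with metoprolol, 180, 177 and 164 with propranolol, 192, 158 and 156 with lidocaine, and 166, 180 and 171 with ivabradine. Control 1 was the lowest library and controls 2 and 3 the highest, as for the fibrillar chains Col3a1, Col1a2 and Col5a1. Col6a1 (Entrez 12833) stood at 117, 173 and 197 FPKM in the controls and under the drugs at 134, 130 and 128 with isoproterenol, 134, 143 and 118 with amiodarone, 139, 128 and 172 with metoprolol, 140, 134 and 123 with propranolol, 153, 124 and 123 with lidocaine, and 126, 146 and 134 with ivabradine. Col6a3 (Entrez 12835) stood at 24, 45.3 and 53.8 in the controls and under the drugs at 27, 28.9 and 27.3 with isoproterenol, 33.3, 40 and 29.1 with amiodarone, 38.4, 28.4 and 48.3 with metoprolol, 33.2, 33.2 and 29 with propranolol, 44.7, 30.8 and 26.4 with lidocaine, and 26.5, 41.3 and 31.2 with ivabradine. Their differences ran from -0.25 to -0.11 log2 for Col6a2, -0.27 to -0.13 for Col6a1 and -0.47 to -0.05 for Col6a3, and none passed. Without control 1, Col6a1 (-0.49 to -0.34) and Col6a2 (-0.44 to -0.29) fell in all 6 drug groups and Col6a3 in 4.

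Col6a6, a chain that can take the place of Col6a3, went the other way. Col6a6 (Entrez 245026) stood at 3.93, 3.77 and 5.23 FPKM in the controls and under the drugs at 5.54, 4.57 and 5.74 with isoproterenol, 6.43, 6.8 and 4.69 with amiodarone, 7.11, 5.7 and 6.83 with metoprolol, 6.26, 6.21 and 5.38 with propranolol, 6.3, 5.72 and 5.55 with lidocaine, and 4.47, 6.67 and 6.13 with ivabradine. It rose with metoprolol (0.51 log2, SE 0.14, adjusted p = 0.0094), amiodarone (0.39, adjusted p = 0.038), propranolol (0.40, adjusted p = 0.038) and lidocaine (0.38, adjusted p = 0.036, all by limma). The metoprolol, propranolol and lidocaine libraries lay above all controls, as did 14.7%, 11.4% and 15.2% of all genes, and those of amiodarone did not. Without control 1, and likewise without control 2, only the call with metoprolol was kept of these 4 (differences 0.20 to 0.46 without control 1), and after rescaling Col6a6 was called in 5 groups. Col6a5, a further chain of this type, varied from 0.05 FPKM in control 1 to 1.58 in ivabradine 1 and was not called.

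Fibril-associated chains bind the surface of collagen fibres. Col14a1 (Entrez 12818) stood at 26.4, 37.5 and 39.7 FPKM in the controls. Under the drugs Col14a1 stood at 30.4, 27.7 and 30.4 with isoproterenol, 36.3, 37.4 and 28.9 with amiodarone, 35.4, 29.3 and 38.9 with metoprolol, 30.7, 31.7 and 28.9 with propranolol, 37.8, 30.6 and 31.2 with lidocaine, and 29, 34.7 and 36 with ivabradine. Its differences were -0.20 to 0.01 log2 and did not pass, and without control 1 it fell with isoproterenol alone (-0.38, adjusted p = 0.025 by limma). Col16a1 (Entrez 107581) stood at 14.4, 30.9 and 31.4 FPKM in the controls. Under the drugs Col16a1 stood at 14.5, 16.9 and 14.1 with isoproterenol, 15, 17.9 and 13.8 with amiodarone, 14, 14.4 and 22.6 with metoprolol, 14.3, 15.9 and 15.6 with propranolol, 20, 12.5 and 13.3 with lidocaine, and 17.2, 18.1 and 18.4 with ivabradine. All drug libraries lay below controls 2 and 3, and control 1 lay within their range. Col16a1 fell with isoproterenol (-0.64, SE 0.23, adjusted p = 0.035), amiodarone (-0.61, adjusted p = 0.05 after rounding and under the threshold before it), propranolol (-0.63, adjusted p = 0.047) and lidocaine (-0.66, adjusted p = 0.03, all by limma). Metoprolol (-0.51, adjusted p = 0.088) and ivabradine (-0.41, adjusted p = 0.19) did not pass. With median-of-ratios rescaling none of these calls was kept (adjusted p from 0.06), those with isoproterenol, propranolol and lidocaine were also lost without control 2 and without control 3, and without control 1 Col16a1 fell in all 6 groups (-1.01 to -0.76).

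Col12a1, Col8a1 and Col8a2, low in abundance, showed wide gaps between control 1 and the other controls. Col12a1, a fibril-associated chain of tissues under strain, stood at 1.27, 8.35 and 9.45 FPKM in controls 1, 2 and 3 and at 1.12 to 5.19 in the drug libraries. Its differences of -0.94 to -0.62 log2 (SE 0.47, adjusted p 0.13 to 0.32) did not pass, and without control 1 it fell in all 6 groups (-1.65 to -1.33). Col8a1 stood at 1.75, 6.16 and 5.67 FPKM in the controls and Col8a2 at 1.06, 3.58 and 4.17, both chains of a short network collagen of vessels and endothelium. Without control 1, Col8a2 fell in all 6 groups and Col8a1 in 5.

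Of the remaining tested chains, Col20a1 fell with lidocaine (-0.23 log2, SE 0.08, adjusted p = 0.04 by limma) from controls of 1.4, 1.5 and 1.52 FPKM, and its libraries in every drug group but isoproterenol lay below the controls, a gap as common among all genes as given above for Col11a2 (25.8% to 33.3%). That call was lost after rescaling (lowest adjusted p 0.12 over the 6 drugs) and without control 1 (0.05 after rounding and not under the threshold before it). Col9a2 (1.86 to 5.02 FPKM), Col26a1 (6.79 to 9.47) and Col23a1 (0.47 to 1.03) were not called with all controls, and of these Col9a2 alone was called without control 1, lower with isoproterenol (-0.53, adjusted p = 0.037) and amiodarone (-0.54, adjusted p = 0.039, both by limma). Col23a1, Col24a1 and Col6a5 passed the filter in exactly 3 libraries, and Col4a6 and Col13a1 fell short of it with 1 library each. The other 12 chains below the filter were Col2a1, Col4a3, Col28a1, Col7a1, Col9a3, Col25a1, Col22a1, Col9a1, Col17a1, Col10a1, Col6a4 and Col19a1, none of which reached 1 FPKM in any library. Among them is Col2a1, the main collagen of cartilage, with 0.02 to 0.54 FPKM.

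Summed by class, the fibrillar chains gave 1270, 2640 and 2480 FPKM in controls 1, 2 and 3 and 1370 to 2170 in the drug libraries. Basement membrane chains gave 861, 862 and 973 in the controls and 735 to 963 under the drugs, and the other chains 353, 530 and 601 against 367 to 521. The ratio of fibrillar to basement membrane collagen was 2.36 ± 0.81 (SD, n = 3) in the controls and 1.81 ± 0.233 over the 18 drug libraries, with control 1 at 1.47 within the drug range of 1.44 to 2.29. All collagen chains together made up 0.457%, 0.731% and 0.754% of the summed FPKM of the controls.

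Ratios of 2 chains within a library do not move with its scaling. The ratio of Col1a1 to Col1a2 was 1.45, 1.59 and 1.44 in the controls and 1.24 to 1.38 in the drug libraries, so all 18 lay below control 1 as well. The ratio of Col4a5 to Col4a1 was 0.035, 0.034 and 0.0312 in the controls and 0.042 to 0.054 under the drugs. That gap follows from the levels of the 2 chains given above and is no separate result. By contrast the ratio of Col3a1 to Col1a1 was 1.44 in control 1, inside the drug range of 1.33 to 1.67, and 1.00 and 1.06 in controls 2 and 3. These ratios were described without a test, and how many other gene pairs show such a gap was not counted.

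The number of chains that differed among the groups depended on control 1. With all libraries the F test of the 7 groups called 2 of 30 chains where it called 39.9% of all genes, Col4a5 (adjusted p = 0.0026) and Col11a2 (adjusted p = 0.0099, both by limma), the latter with the condition on the filter given above. Without control 1 it called 13 of 30 chains, Col1a1, Col3a1 and Col1a2 among them, beside 35.9% of all genes. Among the 5 anti-arrhythmic groups the F test called 0 chains, with 0 at an unadjusted p under 0.05, beside 1.06% of all genes. Isoproterenol against the mean of those 5 groups called 2 chains, both higher, beside 22.8% of all genes, 9.51% higher. These were Col11a2 (0.28 log2, SE 0.08, adjusted p = 0.013), whose libraries stood at 0.96, 0.86 and 1.21 FPKM with isoproterenol, and Col23a1 (0.23, SE 0.08, adjusted p = 0.047) at 1.03, 0.86 and 1.00. Both passed the filter partly through isoproterenol: Col23a1 reached 1 FPKM in isoproterenol 1, isoproterenol 3 and control 3 and Col11a2 in isoproterenol 3 and the controls, and in no library of the other 5 drugs, so these differences carry that condition. Without control 1 Col11a2 alone was called, beside 9.6% of all genes higher.

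The β-blockers metoprolol and propranolol, which block β1 receptors and all β receptors, were compared as a pair, and the test called 0 chains with 0 at an unadjusted p under 0.05, beside 0.0483% of all genes. The interval of the difference between metoprolol and propranolol was -0.02 to 0.37 log2 for Col4a5 (95%, difference 0.18) and -0.33 to 0.71 for Col1a1 (0.19). It was -0.15 to 0.52 for Col3a1, -0.14 to 0.21 for Col4a1 and -0.83 to 1.14 for Col12a1. Each interval allows a difference in either direction, and of these 5 chains the narrowest was that of Col4a1. Metoprolol 3 or lidocaine 1 was the highest drug library for 17 of the 30 chains, and Col1a1 at 631 and 613 FPKM shows how far these lay from the other libraries of their groups.

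Genes that make and shape collagen were counted from 9 lists chosen with earlier results of these data known. In the comparisons with control 19.1% to 26.6% of all genes were called lower and 6.98% to 10.6% higher, and a list's count near those shares says nothing particular of the list. Of 15 prolyl and lysyl hydroxylase and related genes, which modify the chains, 8 fell with isoproterenol, 4 with amiodarone, 4 with metoprolol, 5 with propranolol, 5 with lidocaine and 6 with ivabradine, and 1 rose, with isoproterenol. The counts with amiodarone and metoprolol are near the share of all genes called lower (20.6% and 22%). After median-of-ratios rescaling, which moved the chains' medians to between -0.16 and -0.01, 1 to 3 of the 15 fell in each group, and without control 1 it was 9 to 11. Of 9 chaperone and export genes 3 fell in every drug group, Serpinh1, Creb3l1 and Sparc, of which Creb3l1 was called in 4 groups and Sparc in 0 after rescaling. Serpinh1, the collagen-specific chaperone HSP47, stood at 366, 427 and 415 FPKM in the controls and 300 to 348 in the drug libraries, with no overlap (9.5% of all genes had all 18 drug libraries below the controls). It fell in all 6 groups (-0.35 to -0.26 log2, adjusted p 0.00015 to 0.0028 by limma), and in all 6 after rescaling (-0.25 to -0.15).

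Enzymes acting outside the cell trim and crosslink the chains. Of 7 tested genes of propeptide removal, 3 fell with isoproterenol and 1 or 2 with each other drug, and 1 rose with propranolol and 1 with lidocaine. Among them Bmp1, the procollagen C-proteinase, fell in all 6 groups (-0.37 to -0.27 log2, adjusted p 0.0038 to 0.018) from controls of 53.2, 68.8 and 64.4 FPKM to 45.4 to 55.4, and in 5 after rescaling. Of 6 crosslinking genes 3 fell with isoproterenol, 1 with metoprolol, 1 with propranolol and 0 with the others, and without control 1, 2 to 4 fell per group. Of 7 fibril-binding proteoglycans 4 fell with isoproterenol, 1 with metoprolol, 4 with propranolol, 2 with lidocaine and 0 with the others. Biglycan (Bgn), 1 of these, stood at 203 FPKM in control 1 and 386 and 353 in controls 2 and 3, the pattern of Col1a1. Without control 1, 3 to 7 of the 7 proteoglycan genes fell per group.

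Basement membrane partners gave few calls. Of 10 laminin, nidogen, perlecan and agrin genes 1, 2, 3, 1, 3 and 1 rose with isoproterenol, amiodarone, metoprolol, propranolol, lidocaine and ivabradine, and 1 fell with propranolol and 1 with ivabradine, beside 6.98% to 10.6% of all genes called higher. Lama2, the laminin chain of muscle basement membrane, stood at 20.0, 19.0 and 20.0 FPKM in the controls and 22.8 to 29.3 in the drug libraries, with no overlap, as for Col4a5 and for 3.23% of all genes. It rose in all 6 groups by 0.30 to 0.48 log2 (adjusted p 0.00055 to 0.01 by limma), also after rescaling and without control 1.

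Receptors, degrading enzymes and the TGF-β axis were mixed. Of 8 tested collagen receptors 1 to 3 fell in each group and 1 rose in 4 of them, and without control 1, 3 or 4 fell. Lair1, an inhibitory receptor of immune cells, fell in all 6 (-0.75 to -0.40 log2) from 1.14, 1.17 and 1.51 FPKM in the controls. No drug library of Lair1 reached 1 FPKM (highest 0.89), so it passed the filter through the controls alone, where it was high, and its calls carry that condition. Of 9 tested genes of collagen breakdown 2, 1, 0, 2, 3 and 1 fell in the order of drugs above, and 1 rose, with isoproterenol. Without control 1, 5 to 7 of these 9 fell per group. Mmp2, a gelatinase, stood at 82.5, 127 and 125 FPKM in the controls and 74.2 to 97.8 under the drugs, and fell in 5 groups (1 after rescaling). Of 16 genes of the TGF-β axis, a main inducer of collagen, 1 to 4 rose and 1 to 3 fell per group, and without control 1, 3 to 5 fell. Ltbp1, which tethers latent TGF-β to the matrix, rose in all 6 groups (0.32 to 0.39, controls 13 to 13.8 FPKM, drug libraries 14 to 20), and Tgfb1 fell in all 6 (-0.31 to -0.23), or in 4 after rescaling. Ccn2, listed as Ctgf, rose in 4 groups, most with propranolol (1.86 log2, adjusted p = 7e-05) at 159, 237 and 208 FPKM against 57.9, 42.4 and 64.1 in the controls.

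Markers of the cell types that make or accompany collagen were measured in the same libraries. The 7 cardiomyocyte markers, a check of the label heart apex, summed to 30600 to 33400 FPKM in the controls and 29200 to 35200 in the drug libraries. Of the 7, 4 rose with isoproterenol, 3 with amiodarone, 2 with metoprolol, 3 with propranolol, 3 with lidocaine and 4 with ivabradine. With lidocaine 1 fell. Beside these, 6.98% to 10.6% of all genes were called higher. Without control 1, 2 to 4 of the 7 rose per group. The general fibroblast markers, 10 of 10 tested, summed to 625, 899 and 778 FPKM in controls 1, 2 and 3 and 554 to 718 in the drug libraries. Of the 10, 8 had their lowest control in control 1, such as Lum, a fibril-binding proteoglycan, at 70.2, 127 and 117 FPKM, and Pdgfra at 8.75, 9.96 and 10.5. Tcf21, which defines cardiac fibroblasts, stood at 34.2, 29.6 and 32.1 in the controls and 22.3 to 29 in the drug libraries, with no overlap. For 9.5% of all genes all 18 drug libraries lay below the controls in this way. Among the 3 controls, Tcf21 and Dpep1 were highest in control 1. Of the 10, 6 fell with isoproterenol, 5 with propranolol, 4 with lidocaine and 1 with each other drug, beside 19.1% to 26.6% of all genes. After rescaling 1 to 3 fell per group, and without control 1, 4 to 6 fell.

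The sums of activated fibroblast and of macrophage markers were likewise lower in control 1 than in the other controls. The 6 activated fibroblast markers summed to 501, 685 and 633 FPKM in the controls and 338 to 681 in the drug libraries, and of them Cthrc1 stood at 13.9, 38.6 and 35 and Tnc at 7.78, 24.9 and 29.7. Of these 6, 3 fell with isoproterenol, 2 with propranolol and 2 with lidocaine, and 1 rose with amiodarone, 1 with propranolol and 1 with ivabradine. The gene that rose was Acta2, smooth muscle actin, each time. With isoproterenol Acta2 went the other way, at 174, 146 and 199 FPKM against 263, 301 and 287 in the controls. Without control 1, 2 to 5 of the 6 fell per group. Beside these counts and those of macrophages below, 19.1% to 26.6% of all genes were called lower and 6.98% to 10.6% higher. Without control 1, 18.5% to 25.4% of all genes were called lower. The 9 macrophage markers summed to 293, 643 and 687 in the controls and 112 to 470 in the drug libraries. Lyz2 stood at 91.8, 276 and 405 FPKM in the controls and 26.6 to 269 under the drugs, with 269 in metoprolol 3 and 182 in lidocaine 1, the drug libraries of highest Col1a1. Of the macrophage markers 8, 3, 6, 6, 6 and 6 of 9 fell with isoproterenol, amiodarone, metoprolol, propranolol, lidocaine and ivabradine, and 5 to 9 without control 1. Their part in the collagen differences was not tested.

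**Figure D4:**
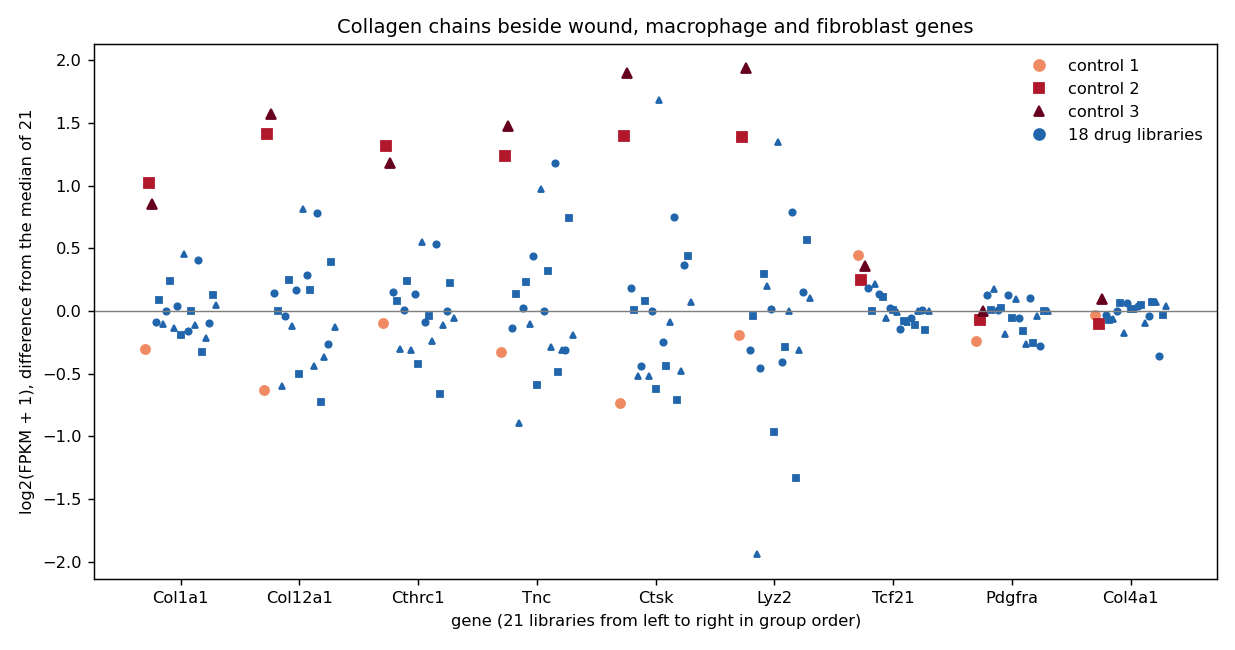
Difference of log2(FPKM + 1) from the median over 21 libraries for Col1a1, Col12a1, Cthrc1, Tnc, Ctsk, Lyz2, Tcf21, Pdgfra and Col4a1; the 3 controls have a colour each and the 18 drug libraries are blue. Controls 2 and 3 lie above control 1 for Col1a1, Col12a1, Cthrc1, Tnc, Ctsk and Lyz2, whereas control 1 is the highest library for Tcf21 (34.2 FPKM).

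Vessel markers and other tissues were summed likewise. The 9 endothelial markers summed to 678 to 761 FPKM in the controls and 588 to 727 under the drugs. Of the 9, 3 to 5 fell in each group, beside 19.1% to 26.6% of all genes. The 7 mural markers summed to 287 to 303 and 273 to 333. Epicardial and mesothelial markers summed to 13.6 to 21.4 in the controls and 14.1 to 49.6 in the drug libraries. Of 7 tested, 4 rose with amiodarone, 4 with lidocaine, 5 with ivabradine and 0 with the other drugs. Beside these, 6.98% to 10.6% of all genes were called higher. Without control 1 the counts were 4, 2 and 4. Lrrn4 was under 1 FPKM in every control, so it passed the filter through the drug libraries, where it was high. The 5 Schwann cell markers summed to 3.82 to 5.02 and 1.92 to 3.91. Cartilage and bone markers summed to 5.61, 13.5 and 17.2 in the controls and 5.12 to 11.8 under the drugs. Their bone markers Ibsp and Bglap were listed at 0 in all controls, while Acan stood at 0.62, 3.51 and 5.48 and Comp at 1.92, 5.52 and 7.44, the order of Col11a1. That order does not stand for the list, as control 1 was the lowest control for 5 of its 10 genes and the highest for 1. Skeletal muscle markers summed to 29.5, 50.7 and 171 FPKM in the controls and 10.1 to 90.2 in the drug libraries. Of 6 tested, 0 fell with amiodarone, 1 with metoprolol, 3 with propranolol, 4 with ivabradine and 5 each with isoproterenol and lidocaine. Other tissues stood out in few libraries, with skeletal muscle markers highest in control 3 and lung markers at 255 FPKM in amiodarone 2. Atrial markers reached 290 in isoproterenol 3 and liver markers 23.7 in propranolol 1. Without these 4 libraries Col4a5 was still called in 5 of 6 groups. That fit kept lidocaine 1, with lung markers at 10.5 FPKM, and amiodarone 3, with skeletal muscle markers at 90.2. The part of these tissues in the other results was not tested.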

How the data were processed

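RNA of 21 heart apex libraries (7 groups of 3) was sequenced on a BGISEQ-500 after oligo dT selection or rRNA depletion, and the labels do not say which. The deposited file is the authors' table of FPKM, covering 18762 genes. Per the submitters' processing notes, HISAT, Bowtie2 2.2.5 and the build mm9 were used, while the counter, the annotation and any use of strand are not given in the sources used here. All value columns were mapped to a library.

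Values were analysed as log2(FPKM + 1), so fold changes understate those of low genes. Genes reaching 1 FPKM in 3 or more libraries, 12433 in all, were fitted in limma 3.58.1 (R 4.3.3) with 1 mean per group, 14 residual degrees of freedom and moderated variances that follow a trend with the mean. P-values were adjusted by Benjamini-Hochberg within each comparison at 0.05. The scripts were tested on simulated data.

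Collagen classes and 22 gene lists (13 of markers, 9 of pathways) come from general knowledge. The members, lists and the first alternatives were chosen with earlier results of these data known. Values in every library are given for the 4 chains of highest mean FPKM in each class and for chains called against control by at least 0.5 log2. From the lists, up to 3 called members of smallest p and defining markers could be named. The values of Col11a2, Col20a1, Col23a1, Lum, Dpep1 and the highest and lowest libraries were added after they were seen. As alternatives the pseudocount was set to 0.1, the filter was dropped or raised to 5 FPKM, libraries were rescaled by median of ratios, the variance trend was dropped, moderation was made robust, the replicate number was added as a block, the compared groups were fitted alone, and each library, or 4 libraries with transcripts of other tissues, was left out. Adding 4 Y-linked genes as a covariate, correcting for transcript length and GC content from another build (96.7% of genes matched), and rescaling together with leaving out control 1 were chosen after seeing the data.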

Additional observations from a re-analysis of the deposited data

How the results depend on the processing

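With isoproterenol the 3 called chains became 1 without a filter, with rescaling, robust moderation or the Y-linked covariate, without 4 libraries, or in the compared groups alone, and 14 with rescaling and without control 1. The 5 with amiodarone became 3 with a filter at 5 FPKM, 1 without 4 libraries or in the compared groups alone, and 14 with rescaling and without control 1. Metoprolol's 2 became 8 with rescaling and without control 1. The 5 with propranolol became 3 without a filter, with a filter at 5 FPKM or in the compared groups alone, 1 without 4 libraries, and 14 with rescaling and without control 1. Lidocaine's 6 became 3 without a filter, with a filter at 5 FPKM, without 4 libraries or in the compared groups alone, and 14 with rescaling and without control 1. Ivabradine's 2 became 1 with a filter at 5 FPKM or in the compared groups alone, and 11 with rescaling and without control 1.

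Isoproterenol against the other 5 drugs went from 2 to 1 with a pseudocount of 0.1 and to 0 with a filter at 5 FPKM, without 4 libraries or with the Y-linked covariate. The F test of the 7 groups went from 2 to 1 with a filter at 5 FPKM or without 4 libraries, to 5 with the length and GC correction and to 8 with rescaling and without control 1. A stricter filter tests fewer genes, and apart from that the cause was not tested.

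Leaving out each library in turn gave 1 to 19 chains with isoproterenol, 2 to 16 with amiodarone, 2 to 12 with metoprolol, 1 to 18 with propranolol, 2 to 18 with lidocaine and 1 to 16 with ivabradine. It gave 0 to 2 for isoproterenol against the other 5 drugs, 0 to 0 for metoprolol against propranolol, 2 to 13 for the F test of the 7 groups and 0 for that of the 5 anti-arrhythmic groups. The highest count against control was without control 1 each time.

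The labels do not say whether libraries of the same title number were paired, and the residuals cannot decide it. Over 63 pairs of the same number, residuals correlated at -0.54 to 0.29, with a median of -0.03. With the replicate block, the count was 3 with amiodarone, 3 with propranolol, 3 with lidocaine and 1 for isoproterenol against the other 5 drugs.

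Among the 17 chains given in every library by the naming rule, 38 chain and drug pairs were called neither with all controls nor without control 1, and the difference changed sign under some alternative in 22 of them, over a range of -0.53 to 0.49. With metoprolol, without 4 libraries Col6a2 was 0.03 and Col6a1 0.03, and leaving out each library gave -0.29 to 0.03 and -0.34 to 0.03. With lidocaine Col5a1 was 0.00 with rescaling and 0.05 without 4 libraries, Col6a3 was 0.00 without 4 libraries, and leaving out each library gave -0.40 to 0.00 for Col3a1, -0.36 to 0.05 for Col5a1 and -0.56 to 0.00 for Col6a3. With ivabradine it gave -0.38 to 0.02 for Col3a1. The lowest values were without control 1 and the highest without control 2 or 3. Depth is unknown, so no counting error could be set beside the chains under 1 FPKM.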
